A study of Mus musculus with 4 samples.

Results

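The 10 genes described here carry out antigen presentation on MHC class II: Cd74, H2-Aa, H2-Ab1, H2-Eb1, H2-DMa, H2-DMb1, H2-Oa, Ciita, Ctss and Cd86. They were chosen by name from the 27998 genes in the count matrices, of which 20272 had at least 1 unique molecular identifier (UMI, a tag that marks 1 captured RNA molecule) in the series. All 10 were present in all 4 libraries. Their levels were compared between dendritic cells, macrophages and monocytes, between genotypes and between days post-injury (dpi).

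Immune cells enriched with CD45 beads were taken from the tibialis anterior muscle of male mice aged 8 to 12 weeks on the C57BL/6 background, after acute injury with cardiotoxin, a snake venom toxin that kills muscle fibres. There was 1 library for each group, namely dpi2 Control, dpi2 KO, dpi4 Control and dpi4 KO. Control mice were Bach1 fl/fl, with loxP sites on either side of exon 4 of Bach1, and KO mice were Bach1 fl/fl littermates that also carried Lyz2-Cre. Both genotypes thus carried the floxed allele, both were injured, and no uninjured library was analysed here. BACH1 is a haem-sensing transcriptional repressor. Lyz2-Cre is active in monocytes, macrophages and neutrophils, and Lyz2 RNA was also counted in dendritic cells, so the deletion need not be complete in each cell type or limited to macrophages. The single-cell samples came from individual mice, so that no group has a replicate animal.

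MHC class II molecules show peptides from engulfed material to CD4+ T cells. H2-Aa and H2-Ab1 encode the alpha and beta chains of I-A, and H2-Eb1 encodes the beta chain of I-E, whose alpha chain gene is not functional in C57BL/6 mice. Cd74 encodes the invariant chain, which fills the peptide groove until cathepsin S (Ctss) and other proteases trim it. The dimer of H2-DMa and H2-DMb1 then removes the remaining fragment and edits the peptide, and H2-O (the dimer that holds H2-Oa) inhibits it. Ciita encodes the class II transactivator, a coactivator that does not bind DNA itself and acts through RFX and NF-Y on the X and Y boxes of class II promoters. Cd86 is a costimulatory ligand read by CD28 on T cells. Dendritic cells and B cells keep class II on continuously, whereas macrophages raise it after signals such as interferon gamma.

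In the GRCm38 assembly 6 of the 10 genes lie together in the MHC on chromosome 17: H2-Oa (ENSMUSG00000024334) at chr17:34092340-34095234, H2-DMa (ENSMUSG00000037649) at chr17:34119541-34139101, H2-DMb1 (ENSMUSG00000079547) at chr17:34153072-34160230, H2-Ab1 (ENSMUSG00000073421) at chr17:34257689-34269419, H2-Aa (ENSMUSG00000036594) at chr17:34282744-34287823 and H2-Eb1 (ENSMUSG00000060586) at chr17:34305867-34316674. H2-Aa lies on the minus strand and the other 5 on the plus strand. The others lie on other chromosomes, Cd74 among them, with Ciita (ENSMUSG00000022504) at chr16:10480059-10528418, Cd86 (ENSMUSG00000022901) at chr16:36603869-36666081 and Ctss (ENSMUSG00000038642) at chr3:95526786-95556403.

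The Y box sequence of class II promoters, TGATTGG, was searched for on both strands of the 250 bases before each annotated RefSeq start in GRCm38.p6, together with GNAAC, a part of the X box, up to 50 bases before it on the same strand. The pair was present in H2-Aa, H2-Eb1, H2-DMb1 and H2-Oa, that is in 4 of the 6 members with a window, and in 1.02% of all 32851 windows. TGATTGG alone was in 7.23% of all windows. In H2-Aa, H2-Eb1, H2-DMb1 and H2-Oa the Y box began 50, 61, 63 and 45 bases before the start, with 26, 25, 26 and 26 bases between it and GNAAC. No match was found in the windows of H2-DMa and Ctss, and Cd74, H2-Ab1, Ciita and Cd86 had no window. A match is a description of letters and not of a bound site. The last 120 bases before the start are shown for 2 genes whose mRNA levels are followed throughout, H2-Aa at chr17:34287824-34287943 (minus strand) and H2-Eb1 at chr17:34305747-34305866 (plus strand), written 5′ to 3′ with GNAAC and TGATTGG in capitals, so that the like spacing of the pair can be seen.
H2-Aa: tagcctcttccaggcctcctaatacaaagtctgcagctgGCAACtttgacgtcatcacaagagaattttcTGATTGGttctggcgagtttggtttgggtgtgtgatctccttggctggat
H2-Eb1: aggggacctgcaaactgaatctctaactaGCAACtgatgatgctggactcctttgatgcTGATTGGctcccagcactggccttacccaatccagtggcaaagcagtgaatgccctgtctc

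Between 3433 and 5721 cells per library passed the filters, with median depths of 10702 to 15157 UMIs per cell, and any 2 libraries shared 2 to 14 barcodes. Cells were clustered without the 10 members and named from fixed markers. This gave 314, 242, 373 and 402 dendritic cells, 1855, 1047, 2965 and 2596 macrophages and 2599, 976, 48 and 64 monocytes in dpi2 Control, dpi2 KO, dpi4 Control and dpi4 KO, an order kept below unless stated. Bach1 was no lower in macrophages of the libraries labelled KO (123, 144, 214 and 228 CPM, the UMIs of the gene per 1000000 UMIs of the class), but these UMIs come mainly from the 3′ ends of transcripts and so do not check a deletion of exon 4. Lyz2, the gene that carries the Cre, was at 8134, 12.9, 18314 and 24.2 CPM in macrophages and Hmox1, a target of BACH1, at 686, 10431, 503 and 7386 CPM. Dendritic cells of the libraries labelled KO also had less Lyz2 (1771, 3.15, 4677 and 10.7 CPM) and more Hmox1 (62.4, 703, 80.6 and 451 CPM), and the part of free RNA in these values was not tested. The KO over Control ratios below thus compare mice that differ in the Bach1 deletion, in Cre and in Lyz2 RNA, and these cannot be told apart.

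All levels are CPM over all cells of a class in 1 library. With 1 library per group no test of a condition was possible, and no p-value is given. Intervals are 95% intervals of counting error alone and do not include the spread between animals. A gene was counted as past the size rule at a difference of at least 2-fold whose interval was clear of no difference, and the share of all genes past it (with at least 50 UMIs over the pair) is given beside the members' count. The KO over Control and the dpi4 over dpi2 comparisons of a cell class share libraries and are not independent. The names and directions of the members were known from earlier results of these data, so their counts are descriptions.

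Dendritic cells had the highest class II level of the 3 myeloid classes in every library. Cd74 (ENSMUSG00000024610, chr18:60803848-60812652), the invariant chain, was at 12244, 13049, 13888 and 13614 CPM in dendritic cells, at 341, 578, 2144 and 1253 CPM in macrophages and at 769, 1098, 2813 and 3466 CPM in monocytes. H2-Aa, the I-A alpha chain, was at 7572, 7953, 9357 and 9918 CPM in dendritic cells and at 173, 338, 1317 and 852 CPM in macrophages. H2-Ab1, the I-A beta chain, was at 7038, 7297, 8285 and 8708 CPM in dendritic cells and at 163, 302, 998 and 699 CPM in macrophages. The 4 dendritic cell values of each gene lay close together, while the macrophage values differed several-fold, being lowest in dpi2 Control and highest in dpi4 Control. H2-Eb1, the I-E beta chain, was at 5949.7, 6312, 7235 and 7667 CPM in dendritic cells and at 128, 259, 775 and 568 CPM in macrophages, the same order of libraries. In monocytes H2-Aa was at 304, 516, 1544 and 2349 CPM, H2-Ab1 at 255, 449, 1301 and 1829 CPM and H2-Eb1 at 161, 307, 922 and 1452 CPM. The monocyte values were thus lowest in dpi2 Control and highest in dpi4 KO, where they rest on 48 and 64 cells at dpi4.

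The peptide editor H2-DM had a narrower contrast between cell classes. H2-DMa was at 656, 603, 633 and 678 CPM in dendritic cells, at 46.2, 50.6, 217 and 165 CPM in macrophages and at 149.5, 131, 224 and 261 CPM in monocytes. H2-DMb1 was at 782, 777, 567 and 628 CPM in dendritic cells, at 37.4, 43.7, 137 and 102 CPM in macrophages and at 80.4, 101, 163 and 173 CPM in monocytes. Its values are uncertain to the extent that reads were split with H2-DMb2, a near-identical copy that was at 83.9, 99.4, 75.7 and 87.9 CPM in dendritic cells and below 4 CPM in macrophages. H2-Oa, which limits the editor, was at 63.8, 63.2, 129 and 142 CPM in dendritic cells against 0.509, 0.639, 1.07 and 1.31 CPM in macrophages. The macrophage values of H2-Oa rest on 19, 19, 59 and 61 UMIs, and its monocyte levels of 0.435, 0.936, 2.09 and 5.71 CPM on 12, 13, 1 and 3 UMIs.

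Ciita, the transactivator, was at 64.0, 59.0, 88.1 and 102 CPM in dendritic cells, at 1.37, 1.28, 17.7 and 11.01 CPM in macrophages and at 3.12, 4.10, 16.7 and 11.4 CPM in monocytes. Its macrophage level at dpi2 was thus near 1 CPM in both libraries. Ctss, the protease that trims the invariant chain, had the opposite order of classes, at 1426, 1511, 1924 and 1716 CPM in dendritic cells, 2868, 2733, 4457 and 4404 CPM in macrophages and 2265, 2076, 2778 and 2617 CPM in monocytes. Cd86, the costimulator, was at 155, 186, 168 and 168 CPM in dendritic cells, at 36.4, 62.2, 95.8 and 87.2 CPM in macrophages and at 176, 189, 201 and 236 CPM in monocytes. Its dendritic cell and monocyte levels had overlapping intervals in dpi2 KO and dpi4 Control, and monocytes were higher in the other two libraries.

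**Figure D1:**
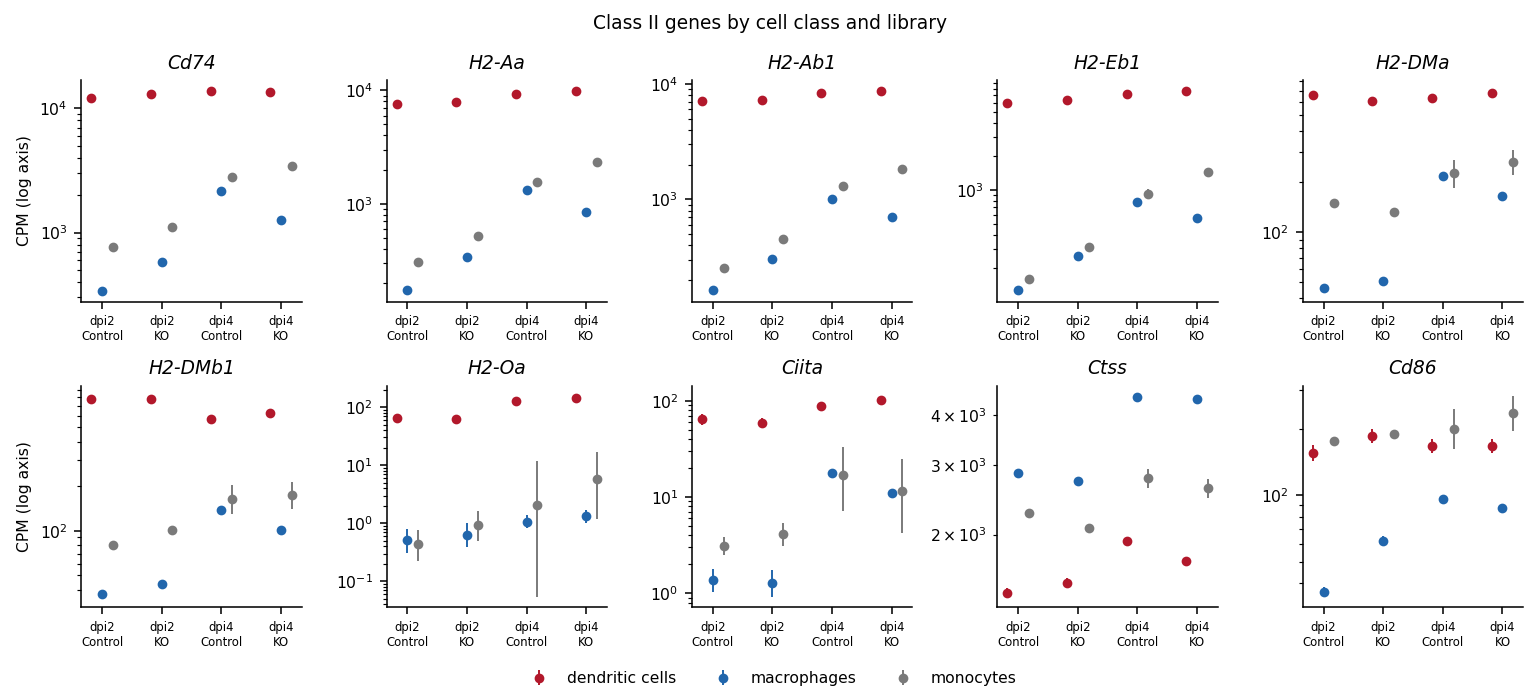
Level of each of the 10 genes in CPM (log axis) in dendritic cells (red), macrophages (blue) and monocytes (grey) in each of the 4 libraries, with 95% Poisson intervals of counting error, from 1 library per group. In 8 panels dendritic cells lie far above both other classes, as for Cd74 at 12244 to 13888 CPM, whereas Ctss is highest in macrophages and Cd86 lies at 155 to 186 CPM in dendritic cells and at 176 to 236 CPM in monocytes.

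Relative to macrophages of the same library, 9, 9, 8 and 8 of the 10 members were past the size rule upwards in dendritic cells, against 9.56%, 8.96%, 8.63% and 10% of all genes. The median log2 ratio of the members was 5.30, 4.53, 2.51 and 3.33, where that of all genes was -0.21, -0.19, -0.11 and -0.08. Cd74 was 35.9-fold, 22.6-fold, 6.48-fold and 10.9-fold higher in dendritic cells. H2-Oa had the largest ratio of the 10 in every library, at 125-fold, 98.8-fold, 121-fold and 108-fold. It was also among the 10 leading genes of the largest dendritic cluster, although left out of the clustering, so this ratio is a description. Its range over the libraries was narrow, while the ratios of the other 8 members that were higher in dendritic cells were smaller at dpi4 than at dpi2. Ciita was 46.9-fold and 46.2-fold higher in dendritic cells at dpi2 and 4.97-fold and 9.26-fold higher at dpi4. Ctss was the exception in every library, with log2 ratios of -1.01, -0.85, -1.21 and -1.36, past the rule downwards in 3 libraries and not in dpi2 KO, beside 17.4%, 16.5%, 13.1% and 15% of all genes lower in dendritic cells.

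Relative to monocytes, 8 of the 10 members were past the rule upwards in dendritic cells of each library, against 9.71%, 9.28%, 7.5% and 9.88% of all genes. The exceptions were Ctss, with log2 ratios of -0.67, -0.46, -0.53 and -0.61, and Cd86, with log2 ratios of -0.18, -0.02, -0.26 and -0.49. Macrophages were lower than monocytes in 8 members at dpi2 in both genotypes, with intervals clear of 0, and Cd86 had the largest such difference in dpi2 Control (log2 ratio -2.27, 95% interval -2.36 to -2.18). At least 2-fold lower in macrophages than in monocytes were 5, 4, 1 and 5 members, against 7.61%, 5.97%, 6.72% and 7.54% of all genes.

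Most class II RNA at dpi2 came from a small class of cells. Cd74, H2-Aa, H2-Ab1 and H2-Eb1, summed as the core, made up 0.269%, 0.412%, 0.705% and 0.619% of all UMIs of a library. Dendritic cells were 5.49%, 6.57%, 8.94% and 11.7% of the cells and held 62.3%, 63.3%, 35.1% and 52.2% of the core UMIs. Macrophages held 15.3%, 19.4%, 54.7% and 43.8%, so that in dpi4 Control alone they held more of the core than dendritic cells did. Monocytes held 20.9%, 14.6%, 0.595% and 1.34%. These shares follow the numbers of cells captured as well as the RNA per cell, and bead enrichment can set the former.

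The genotypes were close in dendritic cells. At dpi2 the log2 ratio of KO over Control ranged from -0.12 for H2-DMa to 0.26 for Cd86, with a median of 0.06 beside -0.01 for all genes, and none of the 10 members was past the size rule, against 1.46% of genes higher and 1.48% lower. Cd74 was 0.09 higher (95% interval 0.07 to 0.11), which is a 1.07-fold difference. Cd86 was 1.20-fold higher (log2 ratio 0.26, 0.11 to 0.42). At dpi4 the range was -0.17 for Ctss to 0.21 for Ciita (0.02 to 0.40), with a median of 0.08 beside 0.03, and again no member was past the rule, against 0.712% and 0.781% of genes. H2-DMb1 was 0.15 higher on the log2 scale (0.07 to 0.22) and Ctss 0.17 lower (ratio -0.17, -0.21 to -0.12). The counting intervals of 7 members at dpi2 and 8 at dpi4 were clear of 0, but without replicate libraries a difference of this size cannot be set against the spread between mice.

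In macrophages the core genes were higher in the KO-labelled library at dpi2 and lower at dpi4. At dpi2 H2-Eb1 was 2.02-fold higher (log2 ratio 1.02, 0.97 to 1.07), H2-Aa 1.96-fold (0.97, 0.92 to 1.02), H2-Ab1 1.85-fold (0.89, 0.84 to 0.94) and Cd74 1.70-fold (0.76, 0.73 to 0.80). Only H2-Eb1 was past the size rule, 1 of 10 members beside 2.29% of genes higher and 2.15% lower. Cd86 was 1.71-fold higher (0.77, 0.67 to 0.88). The editor differed less, with 0.13 for H2-DMa (0.03 to 0.23) and 0.23 for H2-DMb1 (0.12 to 0.34), and the intervals of H2-Oa (-0.67 to 1.33) and Ciita (-0.74 to 0.54) included 0. Ctss was at -0.07. The median of the 10 was 0.55 beside -0.02 for all genes.

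The dpi2 difference in macrophages rested on few cells and on how cells were named, and the share of dpi2 macrophages with a Cd74 UMI was near that of neutrophils and above that of T or NK cells (given below). When each library was clustered on its own, the median of the members was -0.32, with Cd74 at -0.21, H2-Aa at -0.21, H2-Ab1 at -0.42 and H2-Eb1 at -0.42. Of the 44 macrophages of dpi2 KO with the most core UMIs (described below), 13 were named macrophages in that clustering, 4 dendritic cells and 27 were left unnamed. Of the corresponding 38 cells of dpi2 Control, 23 were named macrophages, 10 dendritic cells and 3 monocytes, and 2 were left unnamed. The dpi2 KO cluster led by cycling genes such as Birc5 and Top2a (133 cells) was left unnamed there. The corresponding cluster of dpi2 Control (107 cells) was named macrophage. The direction at dpi2 thus differed between the joint and the separate clustering, which did not name the same cells. The part of this naming in the sign was not tested.

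At dpi4, 9 of the 10 members were lower in KO-labelled macrophages with intervals clear of 0. Cd74 was at 0.584 of its Control level (log2 ratio -0.78, -0.79 to -0.76), H2-Aa at 0.647 (-0.63), H2-Ab1 at 0.701 (-0.51) and H2-Eb1 at 0.733 (-0.45). H2-DMa had a log2 ratio of -0.40 (-0.44 to -0.36), H2-DMb1 of -0.44 (-0.49 to -0.38) and Ciita of -0.69 (-0.84 to -0.53). Ctss, at -0.02, and Cd86, at -0.14, differed least of the 9, and the interval of H2-Oa (-0.24 to 0.84) included 0. The median was -0.44 beside 0.01 for all genes, and no member reached 2-fold, against 1.35% of genes that were at least 2-fold lower and 0.962% higher. With each library clustered on its own the dpi4 difference kept its sign. Over 13 alternatives the median lay between -0.51 and -0.19, the latter under a stricter mitochondrial limit.

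In monocytes at dpi2 the 4 core genes were higher in the KO-labelled library, with log2 ratios of 0.51 for Cd74 (0.48 to 0.54), 0.77 for H2-Aa, 0.82 for H2-Ab1 and 0.93 for H2-Eb1 (0.87 to 0.99). These class values rest largely on a minority of cells. After thinning (described below), 114 Control and 64 KO monocytes with at least 20 core UMIs held 55.6% and 66.1% of the core UMIs. The median monocyte had 0 in both libraries, and 59.9% and 58.7% of monocytes had none. The part of this minority in the ratios was not tested. H2-DMb1 was 0.33 higher, H2-DMa 0.19 lower (-0.19, -0.27 to -0.11), and H2-Oa rested on 12 and 13 UMIs. None of the 10 was past the rule with an interval clear of 0, beside 1.77% of genes higher and 2.75% lower. At dpi4 the monocytes were 48 and 64 cells, and the core genes were again higher, by 0.30 for Cd74 (0.20 to 0.40) to 0.65 for H2-Eb1 (0.48 to 0.83). The dpi4 median of the members was 0.27, but 1.04 when the members were kept in the clustering and -0.43 when pooled with macrophages. In the 48 and 64 monocytes themselves no member was past the rule, against 1.71% and 1.55% of genes. In these cells the 10 dendritic cell markers summed to 46.0 CPM in dpi4 Control and 145 CPM in dpi4 KO, with 4 of the 10 markers detected in each and Zbtb46, Xcr1, Fscn1, Siglech and Itgae at 0 in both, against 14.1 and 11.1 CPM in the dpi2 libraries. Flt3 (12.5 and 7.61 CPM), Cd209a (14.6 and 7.61 CPM) and Clec9a (2.09 and 0 CPM) were not higher in dpi4 KO than in dpi4 Control, each on at most 7 UMIs. The higher sum of dpi4 KO thus lay in the remaining markers, Ccr7 and Dpp4. The part of dendritic cells in the dpi4 values was not tested.

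**Figure D2:**
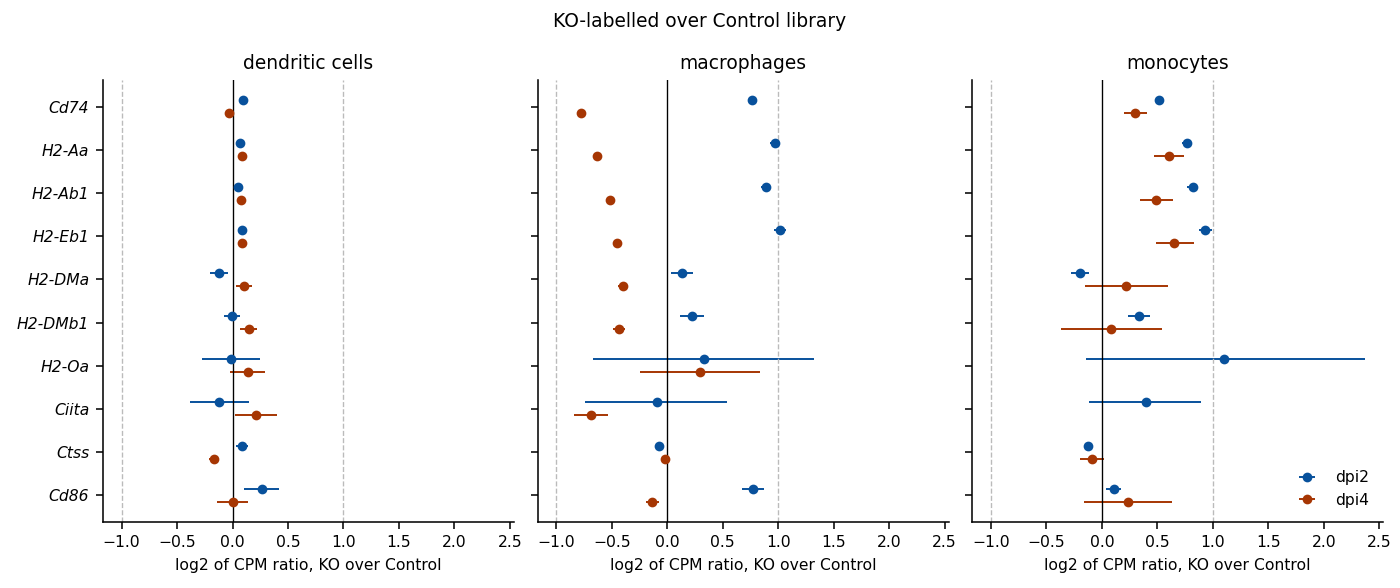
Log2 ratio of CPM, KO-labelled over Control library, for each gene in dendritic cells, macrophages and monocytes at dpi2 (blue) and dpi4 (brown), with 95% intervals of counting error; dashed lines mark 2-fold and genes with under 20 UMIs over the pair are left out. Dendritic cell values lie between -0.17 and 0.26, while the core genes of macrophages lie between 0.76 and 1.02 at dpi2 and between -0.78 and -0.45 at dpi4.

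Between dpi2 and dpi4 the members differed far more in macrophages than in dendritic cells. In Control macrophages 9 of 10 members were at least 2-fold higher at dpi4, against 9.68% of genes (and 5.94% lower), and their median log2 ratio was 2.42 where that of all genes was -0.07. Ciita was 12.96-fold higher (log2 ratio 3.70, 3.29 to 4.13), H2-Aa 7.63-fold (2.93), Cd74 6.29-fold (2.65), H2-DMa 4.70-fold (2.23), H2-DMb1 3.68-fold (1.88) and Cd86 2.63-fold (1.40). Ctss was 1.55-fold higher and did not pass the rule. In KO-labelled macrophages 8 members were past the rule, against 8.84% of genes higher and 4.94% lower, with a median of 1.17 beside -0.05. With each library clustered on its own the medians were 2.40 in Control and 2.25 in KO, and without the cycling sub-cluster M7 (described below) 3.27 and 1.97. The distance between the genotypes was much smaller under separate clustering, but there the cycling cluster of dpi2 KO was left unnamed. The cycling clusters of the other libraries were kept as macrophages, and the part of this naming was not tested. In the joint clustering Ciita was 8.61-fold higher at dpi4 in KO-labelled macrophages (3.11, 2.63 to 3.62), H2-DMa 3.25-fold and H2-Aa 2.52-fold, while Cd86 (0.49) and Ctss (0.69) were not past the rule. The time ratio of Cd74 was 2.65 (2.63 to 2.68) in Control and 1.12 (1.09 to 1.14) in KO-labelled macrophages, and these 2 values share their libraries with the genotype ratios above.

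In dendritic cells the median time ratio was 0.26 in Control and 0.22 in KO-labelled libraries, beside -0.01 and 0.02 for all genes. H2-Oa was the only member past the rule, 2.03-fold higher at dpi4 in Control (log2 ratio 1.02, 0.80 to 1.24) and 2.25-fold in KO (1.17, 0.96 to 1.38), against 4.14% and 3.97% of genes higher and 2.83% and 2.48% lower. Ciita was 0.46 and 0.79 higher. H2-DMb1 was lower at dpi4 in both genotypes (-0.46, -0.54 to -0.39, and -0.31, -0.38 to -0.23). The share of dendritic cells with a UMI of H2-Oa, after each cell was thinned to 2000 UMIs, was 11.04%, 9.70%, 21.4% and 25%. H2-Oa was thus higher and H2-DMb1 lower at dpi4 in both genotypes. The sub-clusters D1 and D2 (described below) held most dendritic cells at dpi2, and D0 and D3 most at dpi4.

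The makeup of the core differed little between dendritic cells and macrophages. Cd74 gave 37.3%, 37.7%, 35.8% and 34.1% of core UMIs in dendritic cells and 42.3%, 39.1%, 41.0% and 37.2% in macrophages. In monocytes its share was 51.7%, 46.3%, 42.8% and 38.1%. Per 1000 core UMIs dendritic cells had 1.94, 1.82, 3.34 and 3.56 UMIs of H2-Oa, and macrophages had 0.633, 0.433, 0.204 and 0.390. The few B cells of the libraries had 10.8, 8.88, 9.57 and 9.58, on 13, 7, 4 and 13 UMIs. H2-DMa was at 19.99, 17.4, 16.3 and 17.0 per 1000 core UMIs in dendritic cells and at 57.4, 34.3, 41.5 and 48.8 in macrophages, so that macrophages had more editor RNA per core RNA.

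Per cell, class II RNA was common to dendritic cells and concentrated in a minority of macrophages. After thinning to 2000 UMIs the median dendritic cell had 65, 72, 87 and 84 core UMIs, and 86.4%, 86.5%, 90.5% and 89.0% had at least 20. The median macrophage had 0, 0, 2 and 0, and 78.1%, 74.4%, 28.2% and 51.0% had none. Macrophages with at least 20 were 2.06% (38 of 1842, 1.46% to 2.82%), 4.23% (44 of 1041, 3.09% to 5.63%), 22.4% (655 of 2918, 20.9% to 24.0%) and 13.9% (353 of 2543, 12.6% to 15.3%). These cells held 67.1%, 78.5%, 79.6% and 81.4% of the macrophage core UMIs, and their median core count was 53.5, 52.5, 40.0 and 42.0. Their median count was thus lower at dpi4 than at dpi2, while their share was higher. Monocytes with at least 20 core UMIs were 4.44% (114 cells) and 6.60% (64 cells) at dpi2 and 20.8% (10 cells) and 22.2% (14 cells) at dpi4. These monocytes held 55.6%, 66.1%, 86.6% and 83.5% of the monocyte core UMIs. Left out as shallower than 2000 UMIs were 13, 6, 47 and 53 macrophages.

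**Figure D3:**
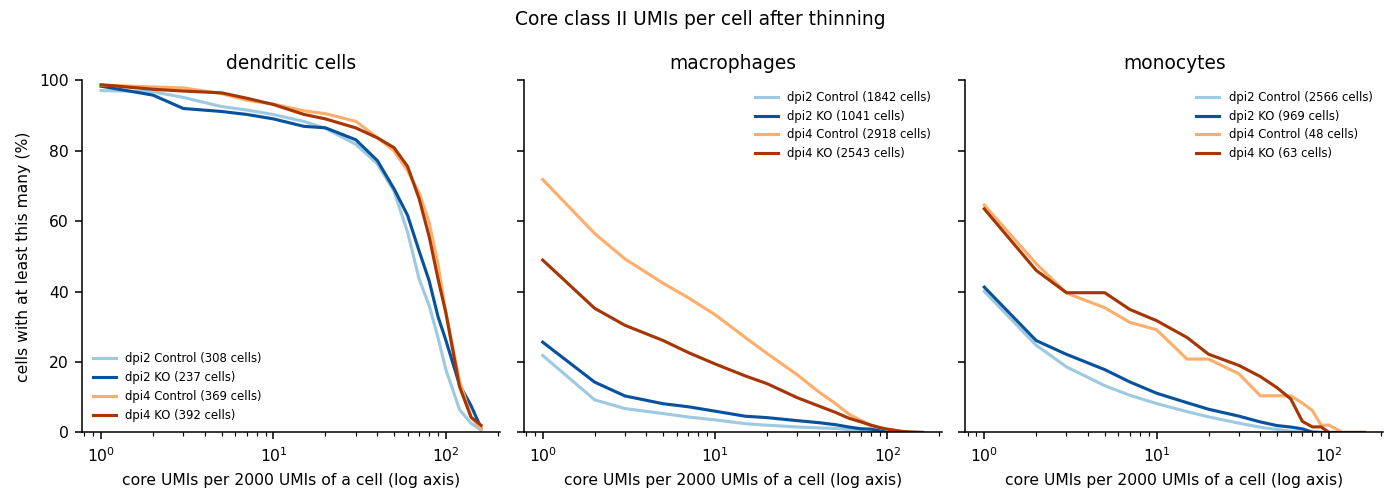
Share of cells (%) with at least a given number of core class II UMIs (Cd74, H2-Aa, H2-Ab1 and H2-Eb1, log axis) after each cell was thinned to 2000 UMIs, for dendritic cells, macrophages and monocytes, with 1 line per library. The dendritic cell lines lie at 86.4% to 90.5% at 20 UMIs and part above it, to 43.5% and 51.5% at dpi2 and 68.0% and 66.3% at dpi4 at 70 UMIs, whereas 22.4% and 13.9% of macrophages of dpi4 Control and dpi4 KO reach 20 UMIs against 2.06% and 4.23% at dpi2.

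Free RNA in droplets puts UMIs into cells that do not express a gene. Neutrophils, which were much shallower (median 2308 to 3421 UMIs), had a Cd74 UMI after thinning in 18.1%, 14.4%, 27.7% and 9.38% of cells, and T or NK cells (median 3951 to 4962 UMIs) in 4%, 2.78%, 13.5% and 8.59%. The share in macrophages (median 15371.5 to 26820 UMIs) was 15.4%, 17.7%, 57.8% and 38.4%. At dpi2 it was near that of neutrophils and above that of T or NK cells, and the part of free RNA in it was not tested, whereas at dpi4 it was above both other classes. At least 20 core UMIs were found in 0 of 464, 0 of 770 and 0 of 119 neutrophils, in 3.12% of 32 neutrophils of dpi4 KO, and in 1%, 0%, 2.70% and 1.56% of T or NK cells. With 3 counts taken as the limit that a count of 0 allows, 0 in 464, 770 and 119 neutrophils allows shares of up to 0.647%, 0.390% and 2.52%, and 0 of 36 T or NK cells one of up to 8.33%.

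The dpi2 macrophages with at least 20 core UMIs carried dendritic cell transcripts, and those at dpi4 did so far less. At dpi2 the 10 dendritic cell markers summed to 338 CPM in Control and 258 CPM in KO in these cells, with 6 of 10 detected, and to 2.45 and 3.11 CPM in macrophages with no core UMI. Cd209a, a lectin of type 2 dendritic cells, made up most of it (263 and 193 CPM), Flt3 was at 24.3 and 23.1 CPM, and Xcr1 was at 0. The 10 macrophage markers summed to 2864 and 3500 CPM in these cells against 11749 and 13664 CPM in macrophages with no core UMI. At dpi4 the dendritic cell markers summed to 34.1 and 57.2 CPM in the cells with at least 20 core UMIs and to 6.69 and 5.01 CPM in those with none, and the macrophage markers to 41513 and 25219 CPM against 36331 and 33562 CPM. The part of dendritic cells or doublets in these values was not tested.

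The other members followed the core to different degrees among macrophages of dpi4 Control. From cells with 0 to cells with 1 to 4, 5 to 19 and at least 20 core UMIs, the share with a UMI of H2-DMa was 17.8%, 23.7%, 41.0% and 61.7%, and that of H2-DMb1 5.60%, 12.0%, 30.8% and 49.0%. Ciita was seen in 0.365%, 0.814%, 3.44% and 13.6% of the cells. Ctss was near its ceiling in every band (98.9% to 99.7%), and Cd86 differed little (15.7%, 17.1%, 21.3% and 21.8%). In dpi4 KO, from the lowest to the highest band, H2-DMa was seen in 15.9% to 58.9% of the cells, H2-DMb1 in 6.55% to 55.5% and Ciita in 0.462% to 9.63%, while Cd86 was at 16.4%, 18.1%, 21.5% and 19.8%. The bands of a library hold different cells of that 1 library, so these are descriptions.

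Within the 1 class, 9 macrophage sub-clusters differed widely in class II level. They are named by their leading genes, and since Ciita and H2-Aa were themselves among the 10 leading genes of M0 although left out of the clustering, the level of M0 relative to the others is a description. M0 (Tmem176a, Tmem176b) had a core level of 6345 CPM in dpi4 Control (1402 cells) and 11206 CPM in dpi4 KO (300 cells). M8, led by interferon-induced genes such as Cxcl10 and Rsad2, had 9206 CPM (237 cells) and 6370 CPM (149 cells), and M3 (Ppm1n, Fam71a) had 6945 CPM (544 cells) and 5212 CPM (471 cells). The lowest levels at dpi4 were in M2, led by the iron exporter gene Slc40a1 and by Vcam1, with 1749 CPM (162 cells) and 1400.2 CPM (1045 cells), and in M4, led by Mmp12, with 2270.1 CPM (380 cells) and 1424 CPM (411 cells). M0 (1402 of 1724 cells in dpi4 Control) and M2 (1045 of 1219 cells in dpi4 KO) were each mostly of 1 library and may be features of those libraries.

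At dpi2 most macrophages were in 3 sub-clusters of low core level. M1 and M6 were each mostly of 1 library (1221 of 1554 cells and 516 of 562 cells) and may be features of those libraries. M1 (Hmga2, Pcdh7) had 374 CPM in Control (1221 cells) and 1656 CPM in KO (161 cells). M5 was led by Lyve1 and Cd163, genes of tissue-resident macrophages, but also by the monocyte marker Vcan and by Fpr1. It had 391 CPM (430 cells) and 359.6 CPM (301 cells), and M6 (Slpi, Cxcl3) had 711 CPM (34 cells) and 478 CPM (516 cells). The cycling sub-cluster M7 stood above them at 4381 CPM (121 cells) and 12921 CPM (37 cells), and it held 21 of the 38 and 19 of the 44 dpi2 macrophages with at least 20 core UMIs. Its dendritic cell markers summed to 72.7 and 195 CPM at dpi2 and to 16.4 and 52.0 CPM at dpi4. Without M7 the dpi2 median of the members was 0.77.

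The KO over Control difference was not uniform over the sub-clusters. At dpi2 the median of the members was 1.35 in M1, where Cd74 was 1.92 higher (1.85 to 1.99) and H2-Eb1 2.42 higher (2.31 to 2.52), and 1.11 in M7, but -0.11 in M5 and -0.23 in M6. The value of M1 rests on few cells, since 10 of its 1217 thinned Control cells and 8 of its 161 KO cells had at least 20 core UMIs and the median cell had 0 in both. The dendritic cell markers of M1 summed to 2.39 CPM in Control and 7.53 CPM in KO, and their part in its ratio was not tested. At dpi4 it was 0.68 in M0, where 7 members were higher with intervals clear of 0, among them H2-Eb1 at 1.14 (1.10 to 1.17) and Ciita at 0.74 (0.48 to 1.003). It was also positive in M1 (0.54) and M7 (0.47). In M2 (-0.24), M3 (-0.26), M4 (-0.41) and M8 (-0.51) it was negative, as in all macrophages combined. Cd74 was at -0.74 in M4 and -0.56 in M3. M0 and the whole class thus differed in opposite directions at dpi4. The macrophage markers of M0 summed to 44715 CPM in dpi4 Control and 28595 CPM in dpi4 KO, and their part in its ratio was not tested. Sub-cluster limits were drawn with genes that themselves differ between the libraries, so the numbers of cells are given as the depth behind each level.

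As a summary chosen after these values were seen, the macrophage ratio was recomputed with the libraries given the same mix of sub-clusters (4 sub-clusters at dpi2 with 97.4% and 96.9% of macrophages, 7 at dpi4 with 99.4% in both). At dpi4 the median of the members was 0.30 with the mix of Control and 0.03 with that of KO, where the observed median was -0.44. At dpi2 the corresponding values were 1.09 and 0.63, where the observed median was 0.55. For Cd74 at dpi4 they were 0.24 and -0.16, where -0.78 was observed. These values rest on sub-clusters drawn with genes that differ between the libraries, and whether they differ from the observed ones beyond the spread between mice cannot be told from 1 library per group.

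**Figure D4:**
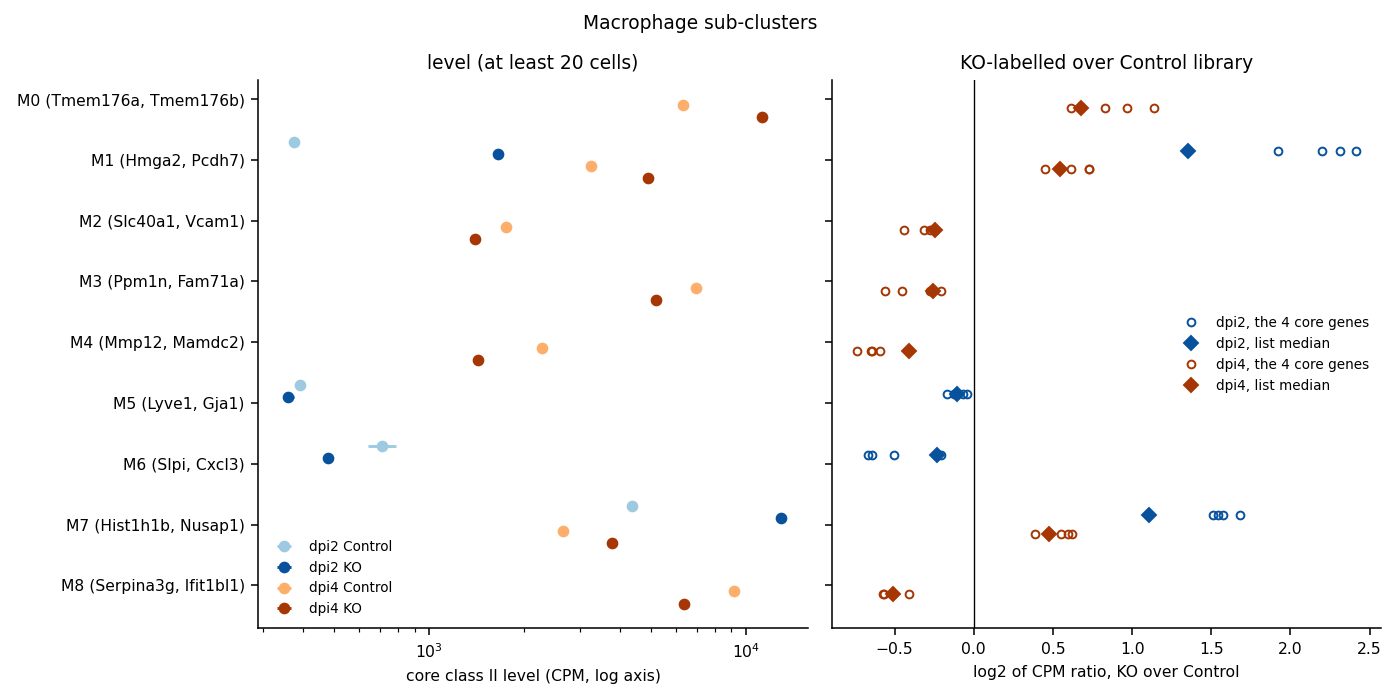
Macrophage sub-clusters, each labelled with 2 leading genes. The left panel gives the core class II level (CPM, log axis) of each library with at least 20 cells, with 95% intervals of counting error, and the right panel the log2 ratio of KO-labelled over Control for the 4 core genes (open circles) and the median of all members (diamonds) at dpi2 (blue) and dpi4 (brown). The medians of M0, M1 and M7 lie to the right of 0, whereas those of M2, M3, M4, M5, M6 and M8 lie to the left, between -0.51 and -0.11.

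Over time M1, which had at least 20 cells in each library, had a median ratio of dpi4 over dpi2 of 1.88 in Control (Cd74 at 2.87, 2.80 to 2.95) and 1.19 in KO (Cd74 at 1.40, 1.33 to 1.47). In M7 the sign was the other way, with -0.47 in Control and -0.73 in KO, where Cd74 was at -0.75 and -1.87. The dendritic cell markers of M7 were likewise lower at dpi4, and those of M1 were at 2.39 and 8.70 CPM in Control and at 7.53 and 7.86 CPM in KO at dpi2 and dpi4. Their part in these ratios was not tested.

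Dendritic cells held 8 sub-clusters. D0 and D1 had the markers of the Cd209a type, D5 and D7 those of type 1 (Xcr1, Clec9a), of which D7 was cycling, D4 those of mature cells (Ccr7, Fscn1), and D6 those of plasmacytoid cells (Siglech). D2 was led by monocyte genes such as Vcan and Chil3 and D3 by macrophage genes such as Trem2 and C1qb, and both were left unnamed. The macrophage markers of the dendritic class summed to 611, 1025, 4602 and 2240 CPM, below the 11432, 12805, 39402 and 32299.5 CPM of macrophages. D0, with mostly dpi4 cells, had the highest core level, at 52365 CPM over 296 cells, and D6 the lowest, at 4512 CPM over 57 cells. The other 6 lay between 29333.5 and 37653 CPM.

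The members varied among dendritic sub-clusters in ways that the core did not show. H2-Oa, itself one of the leading genes of D0, was at 302 and 277 CPM in D0 in the dpi4 libraries, where D5 (type 1) had 100.4 and 88.8 CPM, D4 69.5 and 47.1 CPM and D3 34.4 and 43.9 CPM. At dpi2 it was at 102 and 95.9 CPM in D1, at 34.9 and 36.6 CPM in D2 and at 33.1 and 34.0 CPM in D4. Few cells of D2 were from dpi4 (18 and 12), where its H2-Oa was at 159 and 125 CPM. D0 held 7, 5, 126 and 158 of the dendritic cells. In both dpi4 libraries Ctss was lowest in the type 1 sub-clusters, at 609 and 599 CPM in D5 and 790 and 442 CPM in D7, and highest in D3, at 2767 and 2967 CPM. At dpi2, where D3 had 11 and 10 cells, it was at 1257 and 1998 CPM there, in Control below D0, D1 and D2 (1719, 1382 and 1720 CPM). Plasmacytoid D6 had low Ciita (6.12 CPM) and Cd86 (12.2 CPM), on 3 and 6 UMIs.

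Mature dendritic cells (D4) had little of the editor relative to their core RNA, a comparison chosen after the values were seen. H2-DMa was at 110.4, 191, 161 and 114 CPM in D4 (22, 25, 41 and 57 cells) and at 818, 752, 796 and 831 CPM in D0, D1 and D5 combined. That is 7.41-fold, 3.94-fold, 4.93-fold and 7.30-fold lower, with every upper limit of the log2 ratio at -1.64 or below. H2-DMb1 was 9.62-fold, 5.60-fold, 4.90-fold and 7.33-fold lower and H2-Oa 3.22-fold, 2.80-fold, 3.37-fold and 4.67-fold lower. H2-DMb2, the near-identical copy of H2-DMb1, was 2.87-fold, 1.37-fold, 1.06-fold and 1.53-fold lower. Of the core genes H2-Ab1 was 2.07-fold, 1.29-fold, 1.53-fold and 1.95-fold lower, H2-Aa 1.36-fold, 1.09-fold, 1.08-fold and 1.23-fold lower and Cd74 1.62-fold, 1.26-fold, 1.23-fold and 1.37-fold lower. The ratio of the other types to D4 for H2-Eb1 was 1.18, 0.895, 1.003 and 1.22. D4 was split per cell, since after thinning 38.1%, 66.7%, 75% and 66.7% of its cells had at least 20 core UMIs, where D0, D1 and D5 had 90.1% to 100% in the libraries with at least 20 cells. Ifi30, the lysosomal thiol reductase that opens disulphide bonds of antigens, was 1.502-fold, 1.56-fold, 1.65-fold and 1.41-fold higher in D4. Per 1000 core UMIs H2-DMa was at 4.29 in D4 and at 15.9 to 21.9 in the other sub-clusters apart from D6, at 71.5. The 4 libraries had the same direction for each of H2-DMa, H2-DMb1, H2-Oa, H2-Ab1, H2-Aa, Cd74 and Ifi30.

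Within dendritic sub-clusters with at least 20 cells in both libraries, the median KO over Control ratio of the members was 0.12 in D1 and -0.07 in D2 at dpi2 and 0.02 in D0, 0.12 in D3 and 0.05 in D5 at dpi4. In D4 it was 0.75 at dpi2, on 25 and 22 cells, and -0.29 at dpi4, on 57 and 41 cells. Without D2 and D3 the medians of the whole class were 0.17 at dpi2 and 0.02 at dpi4.

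**Figure D5:**
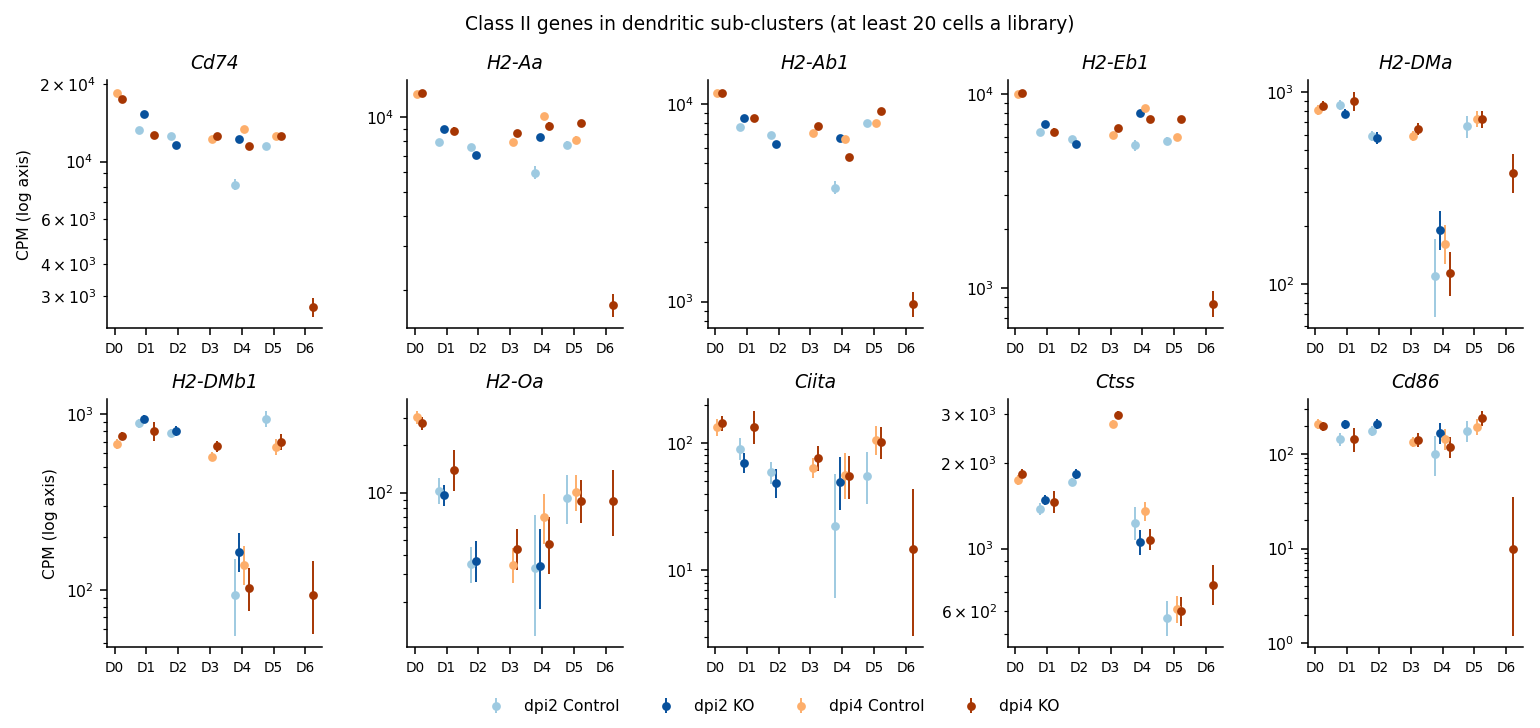
Level in CPM (log axis) of the 10 genes in dendritic sub-clusters D0 to D6 for each library with at least 20 cells, with 95% intervals of counting error. H2-DMa and H2-DMb1 are low in mature cells (D4), at 110.4 to 191 CPM for H2-DMa. Of the core genes H2-Ab1 (by 1.29-fold to 2.07-fold), Cd74 (1.23-fold to 1.62-fold) and H2-Aa (1.08-fold to 1.36-fold) are lower there, and H2-Eb1 is near the other types. D6 (plasmacytoid) is low for the core and Ciita.

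The other genes of the pathway were taken from a list of 29, of which 28 were found by symbol. In macrophages none of them was past the size rule between genotypes at dpi2 (beside 2.29% of all genes higher and 2.15% lower) or at dpi4 (beside 0.962% and 1.35%), and their medians were -0.01 and -0.02. In dendritic cells at dpi2 the lysosomal proteases Ctsl (82.5 against 173 CPM, log2 ratio 1.07) and Ctsd (300.3 against 654 CPM, 1.13) and the repressor gene Prdm1 (11.5 against 24.7 CPM, 1.10) were past it, all higher in the KO-labelled library (3 of 27, beside 1.46% of all genes), and at dpi4 none was. Ctsl and Ctsd are far higher in macrophages, and the macrophage markers in the dendritic class were also higher in KO at dpi2 (611 against 1025 CPM), whose part in these ratios was not tested. In monocytes Cd40 was past it at dpi2, lower in the KO-labelled library (-1.04, beside 2.75% of all genes), and at dpi4 upwards (1.42, 0.60 to 2.31, beside 1.71%). Over time in Control macrophages 7 of the 27 with at least 20 UMIs were past the rule upwards (beside 9.68% of all genes), among them Cd83 (83.9 to 420 CPM, 2.32), Irf1 (35.9 to 116 CPM, 1.69) and the ubiquitin ligase gene March1, which removes class II from the surface (24.2 to 71.2 CPM, 1.56). Ctsl alone was past it downwards (-1.05, beside 5.94%). In KO-labelled macrophages 5 of 27 were past it upwards (beside 8.84%), and March1 was at 1.599 and Irf1 at 1.27. In dendritic cells 4 of 27 were past it upwards in Control (H2-Eb2, Ctsl, Ctsd and Irf1, at 1.14 to 1.39) and 2 in KO (Irf8 at 1.23 and Irf1 at 1.26), where Prdm1 was past it downwards (-1.33), beside 4.14% and 3.97% of all genes higher and 2.48% lower in KO. The macrophage markers in the dendritic class went from 611 to 4602 CPM in Control and from 1025 to 2240 CPM in KO over the same days.

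Lysosomal proteases other than Ctss were also lower in dendritic cells than in macrophages. Lgmn, the asparagine-specific protease, was at 263, 312, 435 and 363 CPM in dendritic cells and at 2303, 2642, 1768 and 2172 CPM in macrophages. The log2 ratios over the 4 libraries ranged from -4.55 to -3.03 for Ctsd, from -3.76 to -2.81 for Ctsb and from -5.29 to -2.85 for Ctsl. The beta chain partner of H2-Oa, H2-Ob, was at 42.1, 39.0, 81.0 and 74.8 CPM in dendritic cells and at 0.938, 0.471, 1.92 and 1.23 CPM in macrophages. Dendritic cells were thus above macrophages in every library, as for H2-Oa. Of the 27 with at least 20 UMIs, 11, 12, 7 and 8 were at least 2-fold higher in dendritic cells, beside 9.56%, 8.96%, 8.63% and 10% of all genes. At least 2-fold lower were 4, 4, 5 and 5, a share near the 17.4%, 16.5%, 13.1% and 15% of all genes. Ifng, the gene of the cytokine that induces Ciita in macrophages, was detected almost only in T or NK cells, where it was at 101, 43.4, 746 and 58.8 CPM on 47, 8, 414 and 47 UMIs. Its level in dpi4 Control was above the intervals of the other 3 libraries, and its relation to class II was not tested.

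The genes most like the core were found by the correlation of log2(CPM + 1) over 45 points, each a named cluster in 1 library with at least 50 cells, among genes that were not members or pathway genes. They were Adrbk2 (r = 0.876), Syngr2 (0.870), Zmiz2 (0.852), Tmem176a (0.845) and Batf3 (0.834). Of the members outside the core Ciita was at 0.937, H2-DMb1 at 0.931, H2-DMa at 0.859, H2-Oa at 0.641, Cd86 at 0.598 and Ctss at 0.295. Over 20 points of macrophage sub-clusters alone the closest genes were Adrbk2 (0.911), Fam69a (0.873), Slamf9 (0.863), Batf3 (0.854) and Tmem176a (0.846), with Ciita at 0.914 and Lgmn at -0.823. Points of 1 library share its depth and its free RNA, and these values carry no test.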

How the data were processed

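Single-cell RNA libraries of CD45+ cells from injured tibialis anterior were made with 10x Genomics 3′ chemistry, 1 library for each of 4 groups. The authors aligned reads to mm10 with Cell Ranger 6.1.2 and deposited counts, as UMIs per gene and filtered barcode (4177 to 6602 barcodes and 57010520 to 80228489 UMIs a library), which were used as deposited. Barcodes with at least 500 genes and under 10% mitochondrial UMIs were kept. Predicted doublets (Scrublet in scanpy 1.11.5, expected rate 0.8% per 1000 cells, 100.0 to 289 removed) were left out. Counts were scaled to 10000 per cell and clustered together on 2000 variable genes, 30 principal components, 15 neighbours and Leiden resolution 1 (0.5 for sub-clusters), with members and pathway genes left out of the variable genes. This gave 28 clusters, named from 65 marker genes where at least 3 markers were detected and no other class led. A cluster with muscle transcripts (2, 0, 450 and 93 cells) was left out of the macrophages.

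UMIs were summed by class and library. Levels carry exact Poisson, shares Clopper-Pearson and ratios conditional binomial 95% intervals, and a share of 0 an upper limit of 3 counts, all of which cover counting error only. A list median uses members with at least 20 UMIs over the pair, and counts over all genes use at least 50 UMIs. In data simulated from these libraries, with 94 to 106 genes changed 4-fold, 98.9% to 100% of them were called in the macrophage and dendritic cell genotype comparisons. The simulated counts held counting error alone, as the intervals assume. They check the calculation only and say nothing about the spread between mice or about differences between genotypes. Genes named are the members, pathway genes given by counts or past the size rule in macrophages or dendritic cells, genes checked for the labels, and the 5 genes most like the core. Pathway genes outside that rule (Lgmn, Ctsb, H2-Ob, Ifng, Ifi30 and Cd40) and sub-cluster leading genes were named after their values were seen. The members and lists were chosen with earlier results of these data known. Alternatives covered filters, doublets, clustering, scaling with edgeR 4.0.16 and DESeq2 1.42.0 factors, thresholds and class definitions. Promoter letters came from RefSeq. Python 3.11.15 and R 4.3.3 were used.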

Additional observations from a re-analysis of the deposited data

Results flagged for a closer look

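Several genes had KO over Control ratios of opposite sign at dpi2 and dpi4 in the same cell class, each with its counting interval clear of 0. The difference between the days was not tested, since each value rests on 1 library per group. In macrophages the log2 ratios at dpi2 and dpi4 were 0.76 and -0.78 for Cd74, 0.97 and -0.63 for H2-Aa, 0.89 and -0.51 for H2-Ab1, and 1.02 and -0.45 for H2-Eb1. They were 0.13 and -0.40 for H2-DMa, 0.23 and -0.44 for H2-DMb1, and 0.77 and -0.14 for Cd86. With each library clustered on its own the dpi2 ratios of Cd74 (-0.21), H2-Aa (-0.21), H2-Ab1 (-0.42), H2-Eb1 (-0.42), H2-DMa (-0.12) and H2-DMb1 (-0.42) had the same sign as at dpi4, and that of Cd86 stayed positive (0.83). That clustering left the cycling cluster of dpi2 KO unnamed and kept that of dpi2 Control as macrophages (given above). In dendritic cells the ratios were small, at 0.092 and -0.029 for Cd74, -0.12 and 0.10 for H2-DMa, and 0.084 and -0.17 for Ctss.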

How the results depend on the processing

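With 1 library per group, neither the spread between mice nor a test of any condition is available, and depth limits H2-Oa and Ciita in macrophages and all genes in the 112 monocytes of dpi4. No paired analysis was possible because each group has 1 library. Over 209 alternatives to the list medians and gene counts, 120 moved by less than the counting interval or by under 1.5 times, 87 moved further and 2 reversed. The list median kept its sign in 165 of 167 alternatives and single members kept theirs in 411 of 440. The cause of each move was not tested. The alternatives without D2 and D3, without M7 and with the muscle-transcript cluster were chosen after seeing the data.

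For KO over Control in macrophages the dpi2 median was 0.55, reversed to -0.32 with libraries clustered separately (Cd74 -0.21, H2-Aa -0.21, H2-Ab1 -0.42, H2-Eb1 -0.42, H2-DMa -0.12, H2-DMb1 -0.42) and was 0.33 when pooled with monocytes (H2-DMa -0.24). Separate clustering also left the cycling cluster of dpi2 KO unnamed, while that of dpi2 Control was kept. The dpi4 median of -0.44 became -0.19 under a 5% mitochondrial limit, -0.28 and -0.39 at Leiden resolutions 0.5 and 2, and -0.51 without M7, and Ctss was at 0.0027 with members among the variable genes. For dendritic cells the median was 0.17 at dpi2 without D2 and D3, and at dpi4 0.021 without them and 0.017 without doublet removal. For monocytes at dpi4 (main 0.27) it was 1.04 with members among the variable genes and -0.43 pooled with macrophages. It was not computed with libraries clustered separately, since dpi4 Control then had no named monocytes.

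The dpi4 over dpi2 median in Control dendritic cells (main 0.26) was 0.32 with separate clustering and with a minimum of 200 genes, and 0.35 under the mitochondrial limit and without D2 and D3. In KO dendritic cells (0.22) it was 0.16 without doublet removal, 0.17 with TMM and 0.10 without D2 and D3. In Control macrophages (2.42) it was 2.31 without doublet removal, 2.05 and 2.35 at resolutions 0.5 and 2, 2.11 with members among the variable genes and 3.27 without M7. In KO macrophages (1.17) it was 2.25 with separate clustering, 1.71 under the mitochondrial limit, 1.08 and 1.10 at the 2 resolutions, 0.98 with members among the variable genes and 1.97 without M7.

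For dendritic cells over macrophages, dpi2 Control (5.30) gave 5.47 with separate clustering, 5.38 under the mitochondrial limit, 5.01 at resolution 2, 5.45 with members among the variable genes, 5.37 with TMM, 5.40 with size factors and 6.17 without M7. In the same order dpi2 KO (4.53) gave 5.81, 4.68, 4.14, 4.83, 4.60, 4.62 and 5.30, and also 4.59 with 200 genes, 4.44 without doublet removal, 4.56 at resolution 0.5 and 4.66 without D2 and D3. For dpi4 Control (2.51) it was 2.75 with separate clustering, 2.70 under the mitochondrial limit, 3.02 at resolution 0.5, 2.99 with members among the variable genes and 2.68 without D2 and D3. For dpi4 KO (3.33) the first 4 of these were 3.601, 3.10, 3.65 and 3.76, with 3.20 without doublet removal and 3.19 at resolution 2.

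Counts of genes past the size rule for KO over Control were 238 and 130.0 in dendritic cells, 493 and 276 in macrophages and 453 and 101 in monocytes at dpi2 and dpi4. In that order they were 569, 383, 809, 546, 739 and 419 with no UMI minimum, 95, 38, 283, 122, 282 and 22 with at least 200 UMIs, and 742, 481, 1244, 872, 1174 and 341 at 1.5-fold. Over time, dendritic cells had 586 in Control and 549 in KO, against 1059 and 1059 with no minimum, 239 and 206 with 200 UMIs, and 1680.0 and 1519 at 1.5-fold. Macrophages had 1833 and 1578, against 4165 and 3666 at 1.5-fold and 1049 in KO with 200 UMIs. Between dendritic cells and macrophages they were 2891, 2671, 2486 and 2805, against 4627, 4413, 4166 and 4591 at 1.5-fold.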
